A study of Mus musculus with 12 samples.

Results

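The cytosolic ribosomal protein genes encode the protein subunits of the ribosome that translates nuclear messages. They made up 50 of the 18193 genes measured on Affymetrix expression arrays in 4 sorted mouse blood cell populations. Members were taken by symbol, from probe sets annotated with 1 gene whose symbol is Rpl or Rps followed by a digit, together with the genes of the ribosomal stalk (Rplp symbols) and Rpsa. The Rps6k kinases and pseudogene symbols were left out. Where a gene had several such probe sets, the one with the highest mean over the 12 arrays stood for it. The 50 comprised 20 proteins of the large subunit, 21 of the small subunit, the stalk genes Rplp0 and Rplp2, and 5 paralogues of core genes (Rpl3l, Rpl22l1, Rpl39l, Rps27l and Rps4l). The symbol rule also took in Rpl7l1 and Rps19bp1, whose products act in ribosome assembly and are no subunits of the mature ribosome. Many genes of the family, among them Rplp1, Rpl3 and Rpl5, were not analysed here, because a probe set was named only where it carried a single symbol. A further 110 probe sets carried a member symbol beside other symbols.

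The arrays held total RNA of untreated cells from C57Bl/6 mice aged 10 to 12 weeks. CD4+ T cells (2 arrays) came from spleen and were sorted without CD8, B220 and Nk1.1. PreMegE progenitors (4 arrays), which precede the megakaryocyte and red cell lines, came from bone marrow and carried cKit and CD150 but no lineage markers, Sca1, CD105 or CD41. Multipotent progenitors (MPP, 3 arrays) and haematopoietic stem cells (HSC, 3 arrays) came from the lineage-negative, cKit- and Sca1-positive marrow fraction, MPP by Flk2/Flt3 without CD150 and HSC by CD150 without Flk2/Flt3. The design text states that the CD4+ T cell and PreMegE arrays were taken over from 2 earlier studies, so study and population cannot be told apart in any comparison that crosses them. No label states whether the arrays of a population stem from different mice or sorts, so p-values measure only the spread between these samples, which may be technical.

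The genes behind the gates followed the labels in part. Cd4 read 9.11 and 9.49 in CD4+ T cells and between 4.50 and 5.13 on all other arrays, as log2 intensities, and Flt3 read 9.95 to 10.10 in MPP against 6.34 to 6.82 in HSC. Eng, the gene of CD105, read 7.93 to 8.38 in PreMegE against 7.74 to 8.11 in HSC, although PreMegE were gated without it. HSC replicates 2 and 3 stood apart from the other arrays by low Xist (2.45 and 2.59, against 12.04 on HSC replicate 1) and by the Y-linked Eif2s3y (7.46 and 8.47, against 2.31 on HSC replicate 1). All MPP, PreMegE and CD4+ T cell arrays resembled HSC replicate 1, with Xist at 10.9 to 12.4 and Eif2s3y at 2.31 to 2.71. In each comparison with HSC, sex as read from these genes therefore differed in part between the groups. The beta-actin control for RNA integrity, as log2 of its 3′ over its 5′ probe set, was 0.99 to 1.13 in CD4+ T cells, 3.49 to 4.65 in PreMegE, 2.35 to 2.68 in MPP and 2.42 to 2.77 in HSC. The same measure of Gapdh was 2.55 to 2.66, 3.12 to 4.39, 3.62 to 3.88 and 3.86 to 4.14 in that order. Of 7 measured B cell markers 5 were higher and 1 lower in CD4+ T cells than in HSC (summed level 12.4 to 12.6 in CD4+ T cells and 10.1 to 10.8 in MPP, against 7.07 to 9.38 in HSC), and of 7 macrophage markers 4 were (9.15 to 9.28, against 7.29 to 8.60 in HSC). Of 6 natural killer cell markers 3 were higher and 1 lower in CD4+ T cells than in HSC (summed level 9.22 to 9.76 in CD4+ T cells and 9.19 to 9.44 in PreMegE, against 8.51 to 8.85 in HSC). Of 5 measured erythroblast markers 2 were higher and 1 lower in CD4+ T cells than in HSC. Their summed level was 8.04 to 10.0 in CD4+ T cells, 7.73 to 8.34 in PreMegE, 5.31 to 5.76 in MPP and 5.72 to 7.82 in HSC. All 7 measured megakaryocyte markers were lower in CD4+ T cells, PreMegE and MPP than in HSC. The summed level of 9 neutrophil markers was 6.90 to 7.53 in CD4+ T cells, 9.39 to 11.4 in PreMegE, 11.4 to 11.6 in MPP and 9.12 to 12.1 in HSC. The part of RNA integrity, of sex and of other cells in the differences below was not tested.

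Ribosomal proteins are made in near-equal amounts, assembled on ribosomal RNA in the nucleolus, and degraded when they are in excess. Their messages are abundant and usually begin with a terminal oligopyrimidine tract, a C followed by a run of C and T bases, through which mTOR and the RNA-binding protein LARP1 control their translation. In blood cells the family is known from Diamond-Blackfan anaemia, in which a mutated copy of one such gene, often RPS19, impairs red cell formation in humans, and from mouse studies in which HSC make less protein per hour than the progenitors derived from them. Free RPL5 and RPL11 bind MDM2 and so stabilise p53 when assembly fails.

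The start regions of 8 members are shown because these genes gave the 6 largest rises in CD4+ T cells against HSC (Rps15, Rpl41, Rpl37a, Rpl19, Rps24 and Rplp2) or, for comparison, no call (Rps18) or a lower level in CD4+ T cells (Rps6). Each line holds the 30 bases before and the first 20 bases from the annotated RefSeq start in GRCm38.p6, on the strand of the gene, with any tract of a C and at least 4 further C or T bases that begins within 10 bases of the start in capitals.
Rplp2, chr7:141447621-141447670, plus strand: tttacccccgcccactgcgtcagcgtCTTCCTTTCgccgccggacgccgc
Rpl19, chr11:98026680-98026729, plus strand: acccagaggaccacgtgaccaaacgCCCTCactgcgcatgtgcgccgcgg
Rps24, chr14:24490648-24490697, plus strand: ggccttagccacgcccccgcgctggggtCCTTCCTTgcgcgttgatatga
Rps18, chr17:33955646-33955695, minus strand: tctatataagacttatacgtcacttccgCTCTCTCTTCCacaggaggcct
Rps6, chr4:86857348-86857397, minus strand: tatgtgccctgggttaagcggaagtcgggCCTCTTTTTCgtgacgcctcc
Rps15, chr10:80292401-80292450, plus strand: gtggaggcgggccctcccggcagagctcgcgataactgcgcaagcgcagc
Rpl41, chr10:128549149-128549198, minus strand: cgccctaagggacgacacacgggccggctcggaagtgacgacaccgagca
Rpl37a, chr1:72711230-72711279, plus strand: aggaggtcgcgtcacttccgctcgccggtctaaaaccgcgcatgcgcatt
The first 5 have such a tract and the last 3 have none that begins within 10 bases of the annotated start, although C and T runs lie further off in the Rps15 and Rpl37a windows.

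A start region was found for 44 of the 50 members. A tract as defined above lay at the start of 24 of them (54.5%), against 28.1% of all 27025 genes in the table. On the opposite strand the shares were 22.7% of members and 31.6% of all genes. The letters CCGGAAG, bound by ETS factors such as GABP, lay on either strand of the window from 250 bases before to 50 after the start in 47.7% of members, against 9.12% of all genes. The letters AAGATGG, part of the YY1 motif, lay in 15.9% of members and 6.48% of all genes, and TATAAA, looked for on the gene strand in the stretch where a TATA box would lie, in 2.27% and 2.56%. By call, 12 of 22 members higher in PreMegE than in HSC had the tract and 11 of 20 uncalled members did, and in CD4+ T cells against HSC these were 10 of 20 and 12 of 20. CCGGAAG lay in 11 of the 22 and 8 of the 20 for PreMegE, and in 9 of 20 and 9 of 20 for CD4+ T cells. Matches are descriptions and none was tested.

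PreMegE carried more message of a large share of the family than HSC did. Of the 50 members 22 were called higher and 3 lower, where a call is a limma adjusted p under 0.05 over all genes. Of all genes tested 11.9% were called higher and 17% lower. The median difference of the members was 0.30 on the log2 scale, against -0.01 over all genes, and 39 members had a positive sign. That median was 0.19 under quantile normalisation, 0.47 on the next brightest sets and 0.16 on gene-specific probe sets, which fewer members have. Differences are relative to the rest of the RNA on each array, so that ribosomal protein message per cell is not known, and in bulk samples fewer cells of a type and less RNA per cell cannot be told apart. Of the 20 large subunit genes 12 were called higher and 1 lower, with a median difference of 0.59. Of the 21 small subunit genes 5 were called higher and 1 lower, with a median of 0.15. Small subunit genes also made up most of the 14 members with a mean of 13 or more, whose median difference was 0.19. The part of brightness in this contrast of subunits was not tested.

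The largest rise in PreMegE was that of Rps15, a small subunit protein near the decoding centre. Its probe set read 12.26, 11.92, 11.14 and 11.88 in PreMegE, against 10.13, 10.37 and 9.65 in HSC, as log2 intensities. The groups did not overlap, and the difference was 1.75 ± 0.23 (SE, limma adjusted p = 2.93e-05), or 3.36-fold. Rpl37a, a zinc-binding protein of the large subunit, read 12.82, 12.70, 12.25 and 12.38 in PreMegE, against 11.32, 11.13 and 10.77 in HSC. All 4 PreMegE arrays lay above all HSC arrays (1.46 ± 0.19, limma adjusted p = 3.19e-05). Rpl14 read 9.67, 9.58, 9.37 and 9.48 in PreMegE, against 7.89, 8.19 and 8.39 in HSC. This large subunit gene differed by 1.37 ± 0.16 (limma adjusted p = 1.16e-05) and was at its highest in PreMegE among the 4 populations.

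Rpl19, a large subunit protein, read 13.02, 13.03, 12.72 and 13.04 in PreMegE, against 11.57, 11.71 and 11.76 in HSC, a difference of 1.27 ± 0.14 (limma adjusted p = 5.67e-06). Rplp2, an acidic protein of the stalk that recruits elongation factors, read 13.48, 13.35, 13.37 and 13.40 in PreMegE, against 12.43, 12.09 and 12.13 in HSC (1.18 ± 0.13, limma adjusted p = 6.12e-06). In both genes the lowest PreMegE array lay above the highest HSC array by more than the HSC range, and PreMegE replicate 3 of Rpl19 lay below the other PreMegE arrays. Rpl27 differed by 1.11 ± 0.16, Rpl22 by 1.06 ± 0.14 and Rps24 by 1.05 ± 0.14 (limma adjusted p between 2.9e-05 and 5.62e-05). A dim plain _at probe set of Rps24 ran the other way in PreMegE, at -2.70 (limma adjusted p = 0.000204). Rplp0, the scaffold of the stalk, differed by 0.43 ± 0.13 (limma adjusted p = 0.0237). The other 13 higher members lay between 0.47 and 0.94. They included Rpl11 (0.79 ± 0.14), Rpsa (0.76), a small subunit protein also known as the laminin receptor, and Rpl38 (0.79), known in mice for its part in the translation of Hox messages.

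Among these calls Rps26, Rpl39, Rps19bp1, Rps27, Rplp0 and Rpl37 passed only narrowly. Rps26 was no longer called when HSC replicate 1 or 2, any one MPP array, or PreMegE replicate 2, 3 or 4 was left out (adjusted p between 0.0527 and 0.156). Rpl39 lost its call with the omission of PreMegE replicate 1, 2 or 4, of HSC replicate 2 or 3, or of the first MPP array (0.051 to 0.163). Rps19bp1 lost it with the omission of PreMegE replicate 1 or 2, or of HSC replicate 2 or 3 (0.0587 to 0.109). Rplp0 lost it without HSC replicate 2 (0.111), HSC replicate 3 (0.0592) or PreMegE replicate 4 (0.0573), Rps27 without HSC replicate 3 (0.062), and Rpl37 without HSC replicate 2 (0.0829). When HSC was represented by replicate 1 alone, the differences of these genes were -0.50 for Rps26, 0.32 for Rpl39 and 0.32 for Rps19bp1. They were 0.43 for Rps27, 0.23 for Rplp0 and -0.67 for Rpl37.

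The 3 members lower in PreMegE were Rps4l, Rpl37 and Rps26. Rps4l, a paralogue of the X-linked Rps4x, read 3.96, 3.99, 4.17 and 3.83 in PreMegE, against 5.79, 4.81 and 5.36 in HSC. It fell by 1.33 on the log2 scale (SE 0.19, limma adjusted p = 6.02e-05), with no overlap. Rpl37, of the large subunit, read 9.46, 8.95, 8.58 and 8.66 in PreMegE, against 9.58, 10.35 and 9.36 in HSC, a difference of -0.85 ± 0.24 (limma adjusted p = 0.0124). Rps26, a protein of the channel through which the message leaves the small subunit, read 12.89, 12.63, 12.69 and 12.70 in PreMegE, against 13.23, 13.31 and 12.87 in HSC. Rps26 differed by -0.41 ± 0.14 (limma adjusted p = 0.0386). The highest PreMegE value of both Rpl37 and Rps26 lay above the lowest HSC value.

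**Figure D1:**
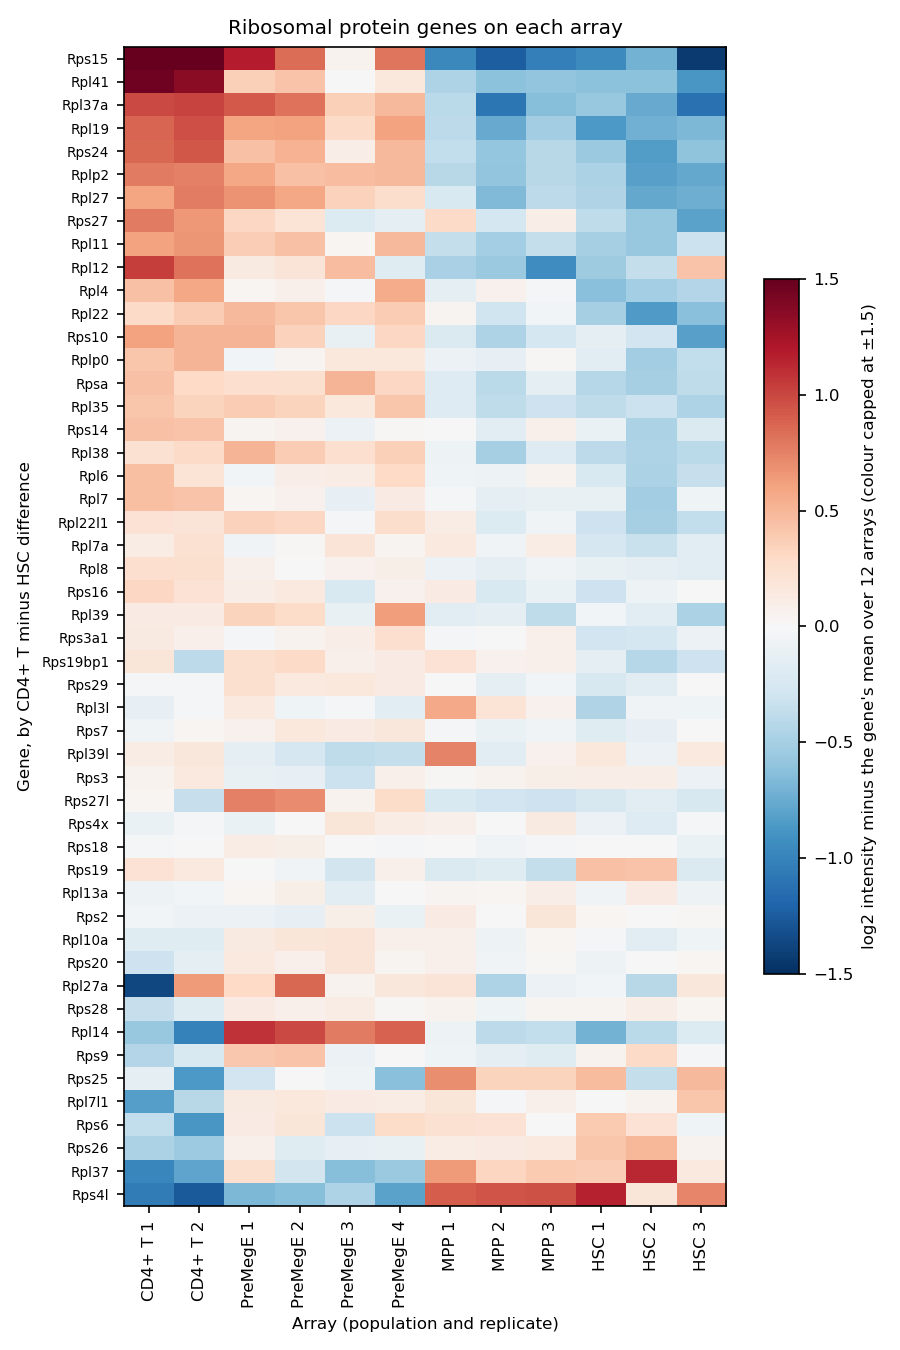
Log2 intensity of each of the 50 ribosomal protein genes minus that gene's mean over 12 arrays, per array (columns) and gene (rows, ordered by the difference between CD4+ T cells and HSC), with colour capped at 1.5 in either direction. Rps15, Rpl41, Rpl37a, Rpl19, Rps24 and Rplp2 at the top were high on all CD4+ T cell arrays and low on all MPP and HSC arrays, and Rps4l at the bottom was low on all CD4+ T cell and PreMegE arrays.

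CD4+ T cells, the mature cells of the series, differed from HSC in the same family with larger single differences. Of the 50 members 23 were called higher and 5 lower, where 17% of all genes were called higher and 20.8% lower. The median difference of the members was 0.33 on the log2 scale, against -0.06 over all genes. Of the members called higher 11 were at least 2-fold higher, and the share of all genes at that size was not counted. The median over the members was 0.16 under quantile normalisation and 0.11 on gene-specific probe sets, which fewer members have. Among 18 members with a pair of sets at a mean of 9 or more, it was 0.68 on the brightest sets and 1.46 on the next. Of the 20 large subunit genes 14 were called higher and 1 lower (median 0.68), of the 21 small subunit genes 6 higher and 2 lower (median 0.06). The 14 members with a mean of 13 or more, mostly of the small subunit, had a median of 0.05. The part of brightness in the contrast of subunits was not tested here either. Both stalk genes were called higher in CD4+ T cells and in PreMegE. The comparisons of PreMegE and of CD4+ T cells with HSC share the 3 HSC arrays, so their values are given side by side and not as independent findings.

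Rps15 read 12.87 and 12.75 in CD4+ T cells, against 10.13, 10.37 and 9.65 in HSC. Its difference of 2.76 ± 0.27 (limma adjusted p = 6.97e-07), or 6.77-fold, was the largest among the members. Rpl41, which encodes a very short basic peptide of the large subunit, read 13.65 and 13.54 in CD4+ T cells, against 11.58, 11.57 and 11.32 in HSC (2.11 ± 0.17, limma adjusted p = 6.67e-08). Rps24, a small subunit protein mutated in some families with Diamond-Blackfan anaemia, read 12.91 and 12.99 in CD4+ T cells, against 11.50, 11.22 and 11.45 in HSC (1.56 ± 0.17, limma adjusted p = 2.1e-06). In all 3 genes the PreMegE arrays lay between, at 12.20 to 12.62 for Rpl41 and 12.16 to 12.58 for Rps24. Rpl37a differed by 1.81 ± 0.23, Rpl19 by 1.67 ± 0.17 and Rplp2 by 1.45 ± 0.16 (limma adjusted p between 8.25e-07 and 1.03e-05). Rplp0 differed by 0.81 ± 0.16 (limma adjusted p = 0.000646) and Rpl11, the p53-linked gene, by 1.10 ± 0.17 (limma adjusted p = 7.92e-05). The brightest sets of these genes with a plain _at ending, which are meant to match 1 transcript, were far dimmer and gave -0.96 for Rpl41 (limma adjusted p = 0.0581) and -3.56 for Rps24 (limma adjusted p = 4.32e-05). A second such set of Rps24 gave 0.39 (limma adjusted p = 0.414). In PreMegE against HSC these sets gave -0.40 for Rpl41 (limma adjusted p = 0.426) and, for Rps24, the -2.70 above and 0.39 (limma adjusted p = 0.347). Other bright sets of Rps24 rose like the chosen one, by 1.73, 1.76 and 2.13 in CD4+ T cells and by 1.16, 1.09 and 1.40 in PreMegE. The next brightest set of Rpl41 rose by 1.29 in CD4+ T cells and by 1.10 in PreMegE. The direction of Rpl41 and Rps24 therefore depended on the probe set in both populations, with the opposite direction seen only on dim sets.

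The 5 members lower in CD4+ T cells were Rps4l, Rpl37, Rps26, Rps6 and Rpl7l1. Rps4l read 3.59 and 3.38 in CD4+ T cells, against 5.79, 4.81 and 5.36 in HSC (-1.84 ± 0.22, limma adjusted p = 6.9e-06). Rpl37 read 8.24 and 8.43 in CD4+ T cells, against 9.58, 10.35 and 9.36 in HSC (-1.43 ± 0.28, limma adjusted p = 0.000728). Both groups were separate in each gene. Rps26 read 12.34 and 12.26 in CD4+ T cells, against 13.23, 13.31 and 12.87 in HSC (-0.83 ± 0.17, limma adjusted p = 0.00077). Rps6, the small subunit protein that S6 kinases phosphorylate downstream of mTOR, read 9.47 and 8.97 in CD4+ T cells, against 10.23, 10.05 and 9.77 in HSC. It differed by -0.79 ± 0.21 (limma adjusted p = 0.00754), but by -0.54 when CD4+ T cell replicate 2 was left out (adjusted p = 0.131) and by -0.47 on its other probe set, which is dim at a mean of 3.03 (adjusted p = 0.0535). Rpl7l1 read 7.91 and 8.32 in CD4+ T cells, against 8.73, 8.78 and 9.15 in HSC (-0.78 ± 0.18, limma adjusted p = 0.00207). When HSC was represented by replicate 1 alone, Rpl7l1 differed by -0.62.

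**Figure D2:**
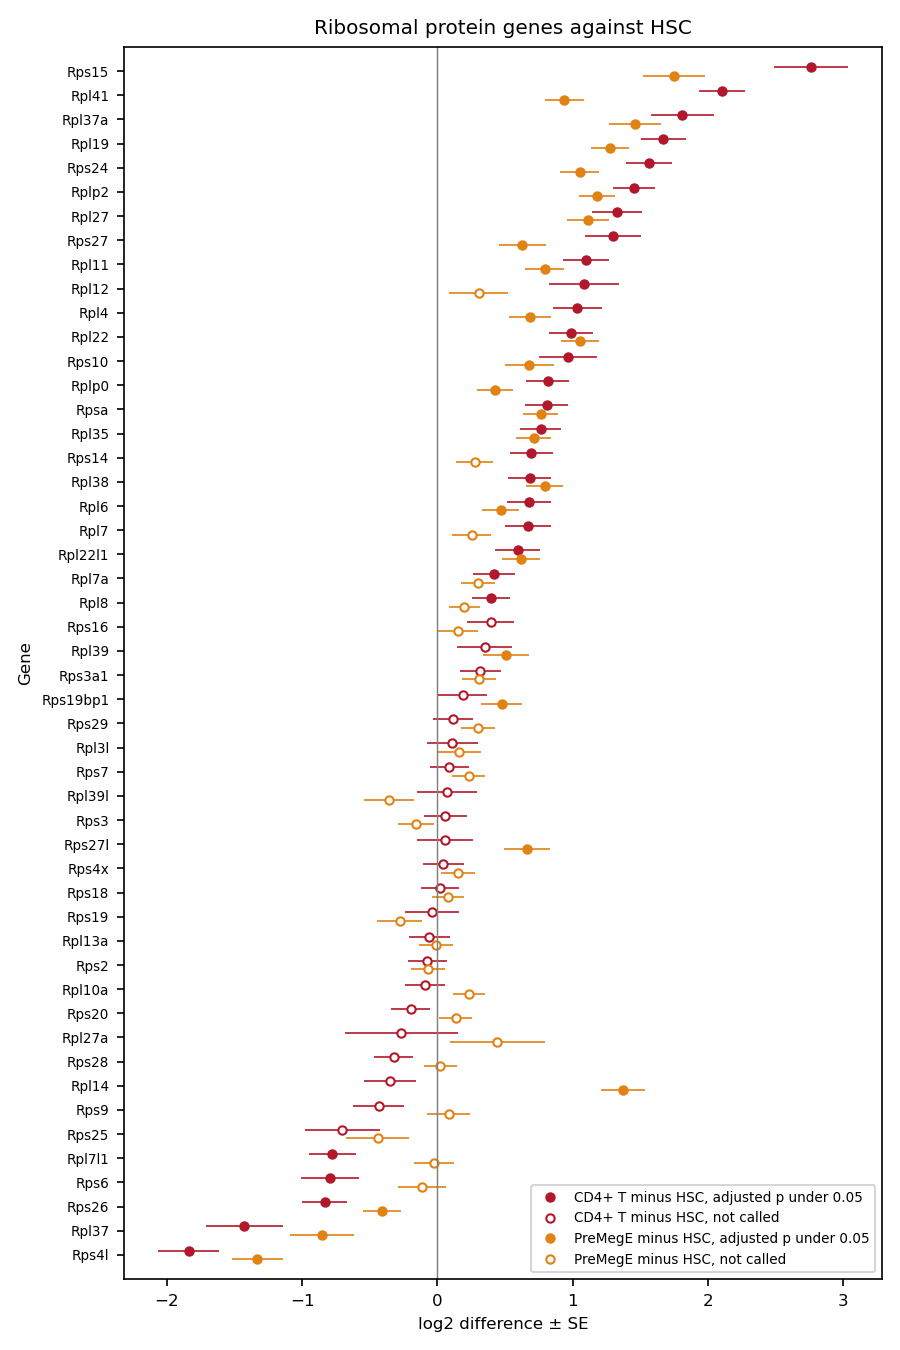
Log2 difference ± SE of the 50 ribosomal protein genes from HSC, with CD4+ T cells in red and PreMegE in orange (2, 4 and 3 arrays for CD4+ T cells, PreMegE and HSC). Filled points are calls at an adjusted p under 0.05; 23 genes were called higher and 5 lower in CD4+ T cells, and 22 higher and 3 lower in PreMegE.

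MPP, the step next to HSC, differed little in this family. By limma 2 of the 50 members were called higher and 0 lower, where 6.38% of all genes were called higher and 4.93% lower. Under quantile normalisation 44.4% of all calls in this comparison were higher, and under loess 46.8%, against 56.4% as deposited. At an unadjusted p under 0.05, 8 members were higher and 2 lower in MPP. The share of all genes at that threshold was not counted, so these numbers cannot be read as a shift of the family. The median difference of the members was 0.10, against -0.03 over all genes, and 38 members had a positive sign. Rpl22, a large subunit protein whose loss blocks alpha-beta T cell development in mice, read 12.97, 12.63 and 12.88 in MPP, against 12.43, 12.09 and 12.31 in HSC. Its difference was 0.56 ± 0.15 (limma adjusted p = 0.0225). Rps27, a zinc-finger protein of the small subunit, read 4.71, 4.17 and 4.52 in MPP, against 4.05, 3.86 and 3.63 in HSC, a difference of 0.62 ± 0.19 (limma adjusted p = 0.0427). In both genes the lowest MPP array lay above the highest HSC array. Rpl22 was not called without HSC replicate 2 (0.46, adjusted p = 0.103), MPP replicate 1 (0.48, 0.108) or MPP replicate 3 (0.53, 0.093). Rps27 was not called without HSC replicate 2 (0.63, adjusted p = 0.0978), HSC replicate 3 (0.51, 0.141), MPP replicate 1 (0.50, 0.194), MPP replicate 3 (0.59, 0.139) or PreMegE replicate 2 (0.62, 0.0529). With HSC replicate 1 alone Rpl22 differed by 0.40 and Rps27 by 0.42. The other 48 members lay between -0.50 (Rpl12) and 0.50 (Rpl4).

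Against MPP, the comparisons gave similar numbers. They use the same PreMegE and CD4+ T cell arrays as the comparisons with HSC, so they are not independent findings. In PreMegE 17 members were called higher than in MPP and 3 lower, where 13.5% of all genes were called higher and 19.5% lower. Rps15 led again, with 12.26, 11.92, 11.14 and 11.88 in PreMegE against 10.12, 9.85 and 10.05 in MPP (1.80 ± 0.23, limma adjusted p = 1.59e-05). Rpl37a (1.36), Rpl14 (1.21), Rpl19 (1.08), Rplp2 (0.97) and Rpl27 (0.89) followed, and Rps4l (-1.58), Rpl37 (-0.76) and Rps25 (-0.70) were lower. Rpl39 (0.51 ± 0.17, limma adjusted p = 0.0333) was not called without any one MPP array or without PreMegE replicate 1, 2 or 4 (adjusted p between 0.0565 and 0.14), nor with an intensity trend (0.0614). Rpl22 (0.50 ± 0.14) was not called without MPP replicate 2 (0.40, adjusted p = 0.0704). Rpl37 was not called without MPP replicate 1 (-0.66, adjusted p = 0.0952), MPP replicate 3 (-0.79, 0.0516), PreMegE replicate 3 (-0.65, 0.0547) or PreMegE replicate 4 (-0.67, 0.0638). Rps25 was not called without any one MPP array (adjusted p between 0.055 and 0.138) or without PreMegE replicate 1 (0.0587) or 4 (0.0959). In CD4+ T cells 18 members were called higher than in MPP and 6 lower, where 15.5% of all genes were called higher and 20% lower. Rps15 (2.80 ± 0.27), Rpl41 (1.96 ± 0.17) and Rpl37a (1.71 ± 0.23) led, and Rps4l (-2.09 ± 0.22), Rpl37 (-1.33 ± 0.28) and Rps25 (-0.96 ± 0.28) were lowest. Rps25 read 8.78 and 8.07 in CD4+ T cells, against 9.63, 9.26 and 9.26 in MPP, and was not called without CD4+ T cell replicate 2 (-0.60, adjusted p = 0.208) or MPP replicate 1 (-0.84, 0.0533).

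CD4+ T cells and PreMegE were also compared directly. In CD4+ T cells 6 members were called higher than in PreMegE and 6 lower, where 16.3% of all genes were called higher and 16.8% lower, and the median difference was 0.00. Both counts lay under the shares of all genes. Rpl41 read 13.65 and 13.54 in CD4+ T cells, against 12.55, 12.62, 12.20 and 12.36 in PreMegE (1.17 ± 0.16, limma adjusted p = 2.58e-05). Rpl14 ran the other way, with 8.02 and 7.58 in CD4+ T cells against 9.67, 9.58, 9.37 and 9.48 in PreMegE. It differed by -1.72 ± 0.18 (limma adjusted p = 1.73e-06), was 3.30-fold higher in PreMegE, and had the lowest adjusted p of the members here. Rps15 differed by 1.01 ± 0.26, Rpl12, a protein at the base of the stalk, by 0.78 ± 0.25, Rps27 by 0.67 ± 0.20, Rps24 by 0.51 ± 0.16 and Rps14 by 0.42 ± 0.15. Rpl7l1 differed by -0.75 ± 0.17, Rps6 by -0.68 ± 0.20, Rps27l by -0.61 ± 0.20, Rps9 by -0.52 ± 0.18 and Rps26 by -0.43 ± 0.16. With 2 CD4+ T cell arrays these calls were fragile. Without CD4+ T cell replicate 1 only 1 member was called higher, and without replicate 2 there were 3 higher and 3 lower. Without PreMegE replicate 1, and without PreMegE replicate 2, 3 were lower. Rpl41 and Rpl14 were called under every one of the 12 omissions of a single array, but Rpl41 gave 0.19 on its next brightest probe set (adjusted p = 0.598) and -0.57 on its gene-specific set (adjusted p = 0.225). Rps9 turned to 1.17 on its next brightest set (adjusted p = 9.4e-05) and to 0.77 on its gene-specific set (adjusted p = 0.0609).

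**Figure D3:**
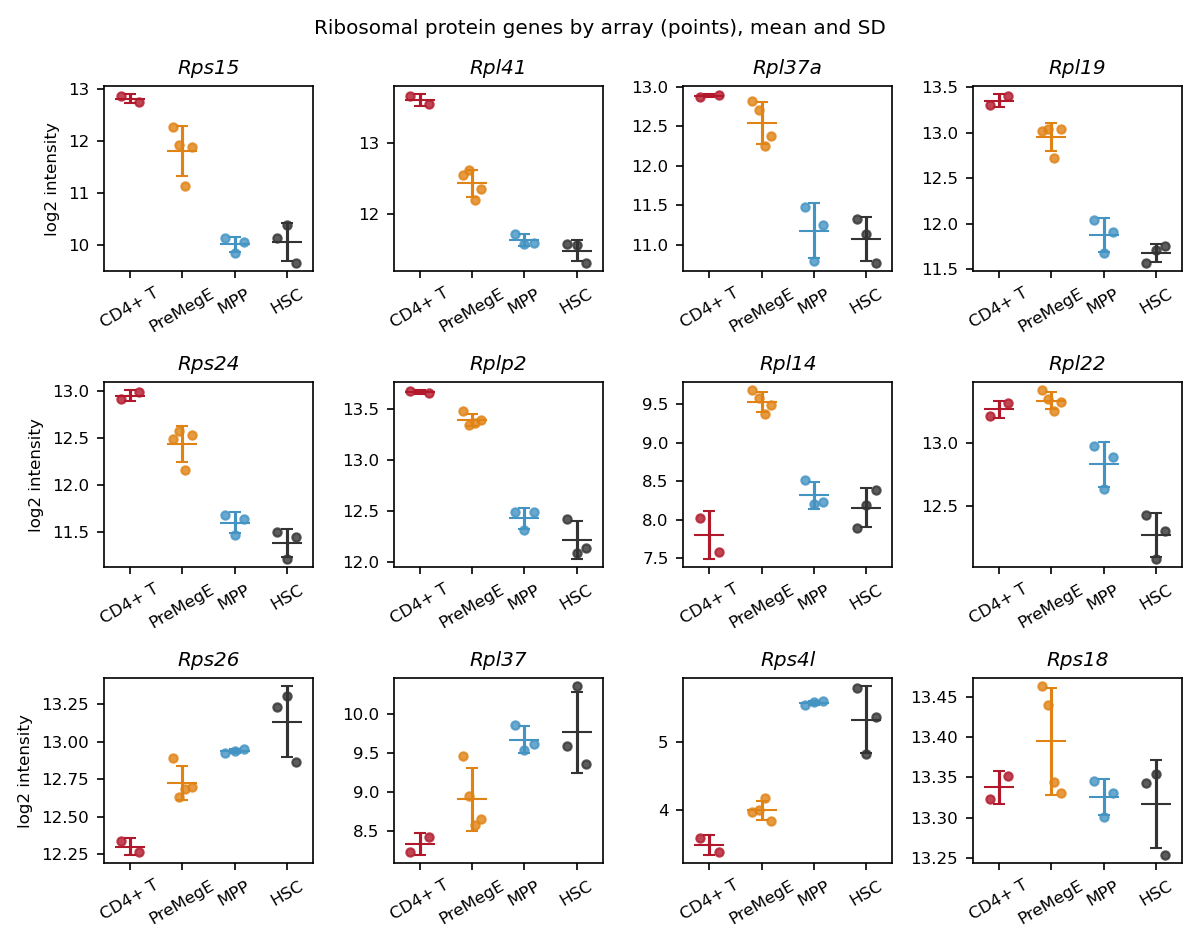
Log2 intensity on each array (points) with group mean and SD (bars) for 12 ribosomal protein genes, in 2 CD4+ T cell, 4 PreMegE, 3 MPP and 3 HSC arrays; each panel has its own vertical axis. Rps15 to Rplp2 were higher in CD4+ T cells and PreMegE than in MPP and HSC, Rpl14 was highest in PreMegE, Rps26, Rpl37 and Rps4l were lowest in CD4+ T cells, and Rps18 differed by under 0.1 between any group mean and HSC.

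The order of the 4 populations differed by gene. HSC gave the lowest group mean of the 4 for 29 of the 50 members, where HSC was lowest for 18% of all genes. CD4+ T cells were lowest for 14 members (36.8% of all genes), PreMegE for 2 (21.8%) and MPP for 5 (23.4%). CD4+ T cells gave the highest mean for 23 members (28.4% of all genes), PreMegE for 15 (26.9%), MPP for 7 (20.3%) and HSC for 5 (24.5%). MPP and HSC gave no call in 48 members. Rps19, the gene most often mutated in Diamond-Blackfan anaemia, showed no call in any comparison with HSC. It read 12.66 and 12.59 in CD4+ T cells, 12.44, 12.40, 12.18 and 12.53 in PreMegE, 12.23, 12.27 and 12.09 in MPP, and 12.89, 12.88 and 12.23 in HSC, so HSC replicate 3 lay with the other populations. Of the 22 genes listed for this anaemia 13 were measured. Of these 7 were higher and 1 lower in CD4+ T cells than in HSC, 6 higher and 1 lower in PreMegE, and 1 higher and 0 lower in MPP, with medians of 0.39, 0.30 and 0.05. All 13 are members, and the counts lay near the shares of the whole family. Those shares were 46% higher and 10% lower in CD4+ T cells, 44% and 6% in PreMegE, and 4% and 0% in MPP.

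The members also differed among themselves. When each array was expressed relative to the median of its 50 members, 9 members were higher and 15 lower in PreMegE than in HSC, and 8 higher and 25 lower in CD4+ T cells, while 0 departed in MPP by limma (4 higher and 2 lower at an unadjusted p under 0.05). On that scale 64.9%, 80.6% and 9.26% of all genes departed in either direction in PreMegE, CD4+ T cells and MPP, by limma at an adjusted p under 0.05. Their share at the unadjusted threshold was not counted. The median level of the members was 12.09 to 12.24 in HSC, 12.53 to 12.79 in PreMegE and 12.91 to 12.95 in CD4+ T cells. It moved further than the median difference of the members (0.30 and 0.33), which favours lower calls on that scale. Rps18, for example, differed from HSC by 0.08 and 0.02 without this step, but by -0.42 and -0.74 with it. Rps15 stayed above the rest of the family (1.25 ± 0.22 in PreMegE and 2.00 ± 0.26 in CD4+ T cells) as did Rpl37a (0.96 ± 0.18 and 1.05 ± 0.22), Rpl19 (0.78 ± 0.15 and 0.91 ± 0.17) and Rplp2 (0.69 ± 0.14 and 0.69 ± 0.17). Rps4l stayed below it (-1.83 ± 0.19 and -2.60 ± 0.23), as did Rpl37 (-1.35 ± 0.23 and -2.19 ± 0.28) and Rps26 (-0.90 ± 0.15 and -1.59 ± 0.18). Rpl14 was above the family in PreMegE (0.88 ± 0.17) and below it in CD4+ T cells (-1.11 ± 0.20).

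Paralogues and their counterparts did not always move together. Rpl22l1, the paralogue of Rpl22, was higher in both populations, by 0.59 ± 0.17 in CD4+ T cells (limma adjusted p = 0.00957) and 0.62 ± 0.14 in PreMegE (limma adjusted p = 0.00299). Rpl22 itself was higher by 0.99 ± 0.16 in CD4+ T cells. The call of Rpl22l1 in CD4+ T cells was lost without CD4+ T cell replicate 1 (0.58, adjusted p = 0.0515). Rps27l, a paralogue of Rps27 that p53 induces, read 8.68 and 8.30 in CD4+ T cells, 9.40, 9.36, 8.70 and 8.92 in PreMegE, 8.41, 8.36 and 8.33 in MPP, and 8.41, 8.48 and 8.41 in HSC. Rps27l was higher in PreMegE than in HSC (0.66 ± 0.17, limma adjusted p = 0.00866) and differed by 0.06 ± 0.21 in CD4+ T cells, where the interval of 95% ran from -0.39 to 0.50. On the next brightest set of Rps27l the PreMegE difference was 0.50 (adjusted p = 0.0748). Rps27 was higher in both, by 1.30 ± 0.21 in CD4+ T cells and 0.63 ± 0.17 in PreMegE. Rps4x, the X-linked counterpart of Rps4l, gave no call, with a difference of 0.04 ± 0.15 in CD4+ T cells and 0.15 ± 0.13 in PreMegE, while Rps4l was lower in both. On its other probe set, dim at a mean of 3.69, Rps4x was higher in CD4+ T cells (0.68, adjusted p = 0.00346).

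Rpl39 was higher by 0.51 ± 0.17 in PreMegE only narrowly (limma adjusted p = 0.0377), and its paralogue Rpl39l, known for its expression in testis, differed by -0.35 ± 0.18 with no call. Rpl3l, a paralogue known from muscle, read 2.56 to 3.58 on all arrays and gave no call. Rpl3l, Rpl39l and the probe set of Rps16 had means under 3.35, the lower quartile over genes. The sets of Rps27 and Rps4l were also dim, with means of 4.43 and 4.63. The median over all genes was 4.65 to 5.04 on the arrays. Rpl7l1 was lower in CD4+ T cells than in HSC, whereas Rpl7 was higher (0.67 ± 0.17, limma adjusted p = 0.0047). Rps19bp1, which binds the Rps19 protein, was higher by 0.48 ± 0.15 in PreMegE (limma adjusted p = 0.0283) while Rps19 differed by -0.28 ± 0.17.

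Many members were among the brightest genes on the arrays. The highest log2 intensity on an array was 14.25 to 14.57, and 26 to 34 of the 50 members lay above the 99th percentile of their array. The deposited values carry no flag for saturated probes, and saturation was not tested. Over all 50 members the Spearman correlation of mean level with the difference from HSC was -0.10 in PreMegE and -0.03 in CD4+ T cells. Only 20 genes in all had a mean of 13 or more, and 14 of these were members. In that class the range over the 4 group means had a median of 0.31, against 0.81 for the 15 members with a mean of 12 to 13 and 0.96 for the 21 members under 12. Over all genes of the same 3 classes these medians were 0.33, 0.78 and 0.64. In PreMegE against HSC 1 of 14, 10 of 15 and 11 of 21 members of the 3 classes were called higher, where 15%, 20.3% and 11.9% of all genes in these classes were. In CD4+ T cells against HSC the counts were 3 of 14, 12 of 15 and 8 of 21, where the shares of all genes were 20%, 23% and 17%. Rpsa was the 1 member of the brightest class called higher in PreMegE, at 13.65, 13.64, 13.90 and 13.71 in PreMegE against 12.97, 12.89 and 13.02 in HSC. Rps18 is an example of a bright gene with no call, at 13.32 and 13.35 in CD4+ T cells, 13.46, 13.44, 13.34 and 13.33 in PreMegE, and 13.34, 13.35 and 13.25 in HSC.

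The other probe sets of a gene differed from its brightest set in both directions. Those at a mean of 9 or more mostly gave a higher difference from HSC than the brightest set. Those with a mean under 9 mostly gave a lower one. Among 18 members with a pair of single-symbol probe sets at a mean of 9 or more, the next brightest set gave the higher difference from HSC in 15, both in CD4+ T cells and in PreMegE. The median difference in CD4+ T cells was 0.68 on the brightest sets and 1.46 on the next, and in PreMegE 0.29 and 0.97. Rpl13a gave -0.06 on its brightest set in CD4+ T cells and 2.09 on its next, Rps9 gave -0.43 and 1.65, Rps18 gave 0.02 and 0.78, and Rps29 gave 0.12 and 0.97. Rps3 ran the other way, with 0.06 on its brightest set and -2.94 on its next. One set of Rps24 gave -3.56 against 1.56 on the brightest, and the least bright set of Rpl22 gave -1.67 against 0.99. Which transcripts these sets match was not tested. Of the 50 chosen sets 16 carried an _x_at and 1 an _s_at ending, which mark probes shared with other transcripts, and 17 an _a_at ending. Ribosomal protein genes have many processed pseudogenes, so the signal of such sets cannot be assigned to 1 gene with certainty.

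**Figure D4:**
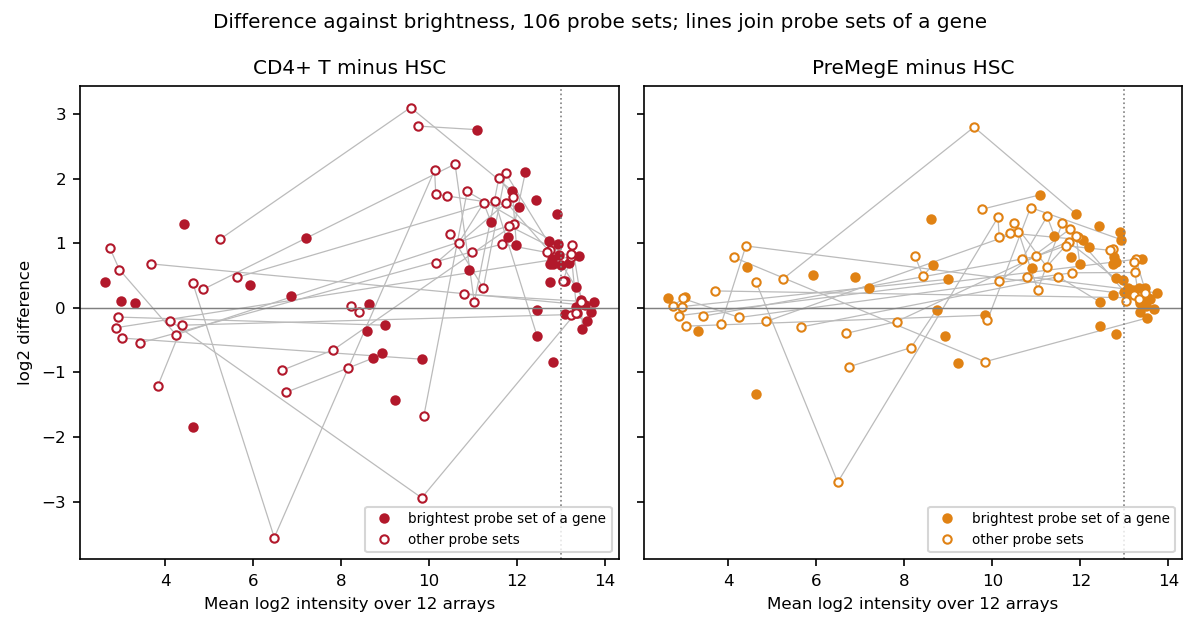
Log2 difference from HSC of CD4+ T cells (left) and PreMegE (right) against the mean log2 intensity over 12 arrays, for all 106 single-symbol probe sets of the 50 genes; filled points are the brightest set of each gene, open points its other sets, thin lines join sets of a gene, and the dotted line marks 13. Filled points right of the line had a median difference of 0.05 in CD4+ T cells and 0.19 in PreMegE.

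All probe sets were also fitted without choosing 1 per gene. Of the 106 single-symbol sets 52 were called higher and 11 lower in CD4+ T cells than in HSC, where 15% and 14.4% of all 45037 probe sets were. In PreMegE 49 were called higher and 7 lower (9.48% and 11.2% of all), and in MPP 3 and 3 (4.59% and 2.83%). Of the 110 sets with a member symbol beside others 45 were called higher and 6 lower in CD4+ T cells, 50 and 7 in PreMegE, and 7 and 0 in MPP. The 2 dim sets of Rpl41 were among those lower in MPP than in HSC (-1.25 and -1.60, limma adjusted p = 0.0025 and 0.00735), while its brightest set differed by 0.15 (limma adjusted p = 0.696).

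Other genes of translation and ribosome assembly were counted from lists, to be read against the shares of all genes called higher and lower than in HSC, which were 17% and 20.8% in CD4+ T cells, 11.9% and 17% in PreMegE, and 6.38% and 4.93% in MPP. Fau, which encodes a small subunit protein as a fusion with a ubiquitin-like part, was higher by 2.15 ± 0.25 in CD4+ T cells (limma adjusted p = 3.8e-06) and by 0.89 ± 0.21 in PreMegE (limma adjusted p = 0.0039). Of 24 translation factors and other genes known for terminal oligopyrimidine messages 7 were higher and 4 lower in CD4+ T cells, 9 and 4 in PreMegE, and 4 and 0 in MPP, with medians of 0.12, 0.08 and 0.26. Naca, a ribosome-bound chaperone of nascent chains, was higher by 2.32 ± 0.17 in CD4+ T cells, 2.18 ± 0.14 in PreMegE and 0.76 ± 0.15 in MPP. Eif3k, a subunit of an initiation factor, was higher by 1.94 ± 0.20, 1.62 ± 0.17 and 0.66 ± 0.18. The initiation factor Eif4b was lower in CD4+ T cells (-2.01 ± 0.20) and PreMegE (-1.57 ± 0.17). The 4 lower of 24 did not exceed the share of all genes in CD4+ T cells or PreMegE.

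Of 41 ribosome assembly genes 12 were higher and 12 lower in CD4+ T cells than in HSC, 20 and 1 in PreMegE, and 4 and 1 in MPP. The medians were 0.07, 0.41 and 0.22. Ltv1, an export factor of the small subunit, was higher by 1.73 in both CD4+ T cells (SE 0.18) and PreMegE (SE 0.15). Tcof1, which acts in ribosomal RNA transcription, was higher by 1.76 ± 0.21 in CD4+ T cells, and Gnl2 (1.53 ± 0.24) and Nop58 (1.53 ± 0.34) were higher in PreMegE. Gar1 (-1.48 ± 0.23) and Dkc1 (-1.27 ± 0.20), which serve pseudouridylation of ribosomal RNA, were lower in CD4+ T cells, and Fbl, its methyltransferase, was lower in PreMegE (-1.01 ± 0.17). In the direct comparison 4 of the 41 were higher and 21 lower in CD4+ T cells than in PreMegE, with a median of -0.48. Of all genes 16.3% were called higher and 16.8% lower there. Of 7 chaperones of ribosomal proteins 2 were higher and 1 lower in CD4+ T cells, 5 and 1 in PreMegE, and 2 and 0 in MPP, with Bccip, a chaperone of RPL23 in humans, higher in all 3 (1.20 ± 0.20, 0.84 ± 0.17 and 0.64 ± 0.18). Of 18 RNA polymerase I genes, which transcribe ribosomal RNA, 4 were higher and 4 lower in CD4+ T cells, 7 and 3 in PreMegE, and 0 and 1 in MPP, and the CD4+ T cell counts lay near the shares of all genes (17% and 20.8%).

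Of 76 mitochondrial ribosomal protein genes, which serve a separate ribosome, 41 were higher and 6 lower in CD4+ T cells, 31 and 7 in PreMegE, and 8 and 1 in MPP, with medians of 0.57, 0.31 and 0.25. Mrpl58 was higher by 2.24 ± 0.18 in CD4+ T cells, Mrps22 by 1.95 ± 0.16 in PreMegE and Mrps30 by 0.89 ± 0.14 in MPP. Mrpl50 was lower in all 3 (-1.87 ± 0.19, -0.66 ± 0.16 and -0.80 ± 0.17). Of 25 genes of mTOR signalling and its control of these messages 4 were higher and 8 lower in CD4+ T cells, 6 and 6 in PreMegE, and 0 and 3 in MPP, and the 4 higher in CD4+ T cells lay near the 17% of all genes. Eif4ebp1, which restrains cap-dependent translation, was lower in CD4+ T cells (-1.77 ± 0.26) and higher in PreMegE (1.33 ± 0.21). Mycn, a transcription factor that drives ribosome production, was lower in CD4+ T cells (-6.03 ± 0.25), PreMegE (-1.66 ± 0.21) and MPP (-2.61 ± 0.22). Of 19 genes of the p53 response 7 were higher and 4 lower in CD4+ T cells, 5 and 3 in PreMegE, and 5 and 0 in MPP. Zmat3 was higher in CD4+ T cells (2.52 ± 0.25) and PreMegE (3.40 ± 0.21), and Cdkn1a, the cell cycle inhibitor p21, was higher in MPP (3.51 ± 0.32).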

How the data were processed

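Total RNA was hybridised to 12 arrays. The authors deposited an intensity for each probe set. The submitters' processing notes name RMA; its version, and which arrays were normalised together, are not given in the sources used here. The deposited intensities are linear, and log2 was taken here with no further normalisation. RMA fits all probes of a set across arrays and gives no detection or saturation flag. Of 45101 probe sets, 64 controls were left out, and gene symbols came from the platform annotation (34945 probe sets with 1 symbol, 932 with several, 9160 with none); only those with 1 symbol were named. This left 18193 genes, 9010 of them with several probe sets. Means per group were fitted to all 12 arrays with limma 3.58.1 in R 4.3.3 (lmFit, eBayes, two-sided, Benjamini-Hochberg over all genes). CD4+ T cells, with 2 arrays, borrow their spread from the other groups. The number of arrays limits the precision. Values are means with SE of the fit.

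The members and gene lists were chosen with earlier results of these data known. Full values went to the members with the up to 6 largest rises and falls per comparison, the stalk genes, paralogues with their counterparts, Rpl11, and at most 3 rises and falls per list. The lists were tested as counts only. Alternatives were quantile and cyclic loess normalisation, the next brightest probe set, gene-specific probe sets, an intensity trend, dim genes left out, each array left out, PreMegE replicates 3 and 4 averaged because the fourth carries number 3 in its description, and the replicate number as a block. One alternative, HSC replicate 1 alone, was chosen after seeing the data. The fits were tested on simulated data. Start regions came from RefSeq, GRCm38.p6. Protein sequences were not used here.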

Additional observations from a re-analysis of the deposited data

Results flagged for a closer look

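Of 50 ribosomal protein genes examined over the 4 PreMegE arrays, 2 had 1 array far from the other 3, and chance flags about 1 group in 20. Rpl19 read 12.72 on PreMegE replicate 3, against 13.02 to 13.04 on the others. Rps2, a small subunit gene, read 13.45 on PreMegE replicate 3, against 13.24 to 13.27 on the others. The array was lower for Rpl19 and higher for Rps2. The other populations have under 4 arrays and were not examined.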

How the results depend on the processing

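Each result was recomputed under every alternative, 1 choice at a time. Of 2690 values of single members under an alternative 2502 kept their direction and their side of the threshold, 152 lost a call, 26 gained one and 10 reversed. Of 315 counts of members 271 stayed within 1.5 times, and of 126 medians over the members 114 moved by less than the spread between arrays. The cause of the changes below was not tested. Under quantile normalisation 9 members were lower in CD4+ T cells than in HSC and 2 departed from the members' median in MPP. Under cyclic loess 15 members were higher and 3 lower in CD4+ T cells than in PreMegE, and 1 departed in MPP. With the next brightest probe set 0 members were higher in MPP than in HSC and 2 departed, 5 were lower in PreMegE than in HSC and 38 departed, 6 were lower in PreMegE than in MPP, and 2 were lower in CD4+ T cells than in PreMegE. That setting turned Rpl7l1 to -0.67 and Rps4x to 0.50 in PreMegE against MPP, Rps4x to 0.91 in CD4+ T cells against MPP, and Rps9 to 1.17 in CD4+ T cells against PreMegE. With gene-specific probe sets, which fewer members have (27), 8 members were higher in CD4+ T cells than in HSC and 14 departed, 11 were higher in PreMegE than in HSC and 10 departed, and 2 were lower in MPP than in HSC and 4 departed. On those sets 10 members were higher in PreMegE than in MPP, 10 in CD4+ T cells than in MPP and 3 in CD4+ T cells than in PreMegE. They turned Rpl41 to -0.96 and Rps24 to -3.56 in CD4+ T cells against HSC, Rps24 to -2.86 against MPP, and Rpl41 to -0.57, Rps24 to -0.86 and Rps9 to 0.77 in CD4+ T cells against PreMegE. With an intensity trend 8 members were lower in CD4+ T cells than in HSC, 10 higher in CD4+ T cells than in PreMegE, 1 lower in MPP than in HSC and 2 departed in MPP. HSC replicate 1 alone, chosen after seeing the data, left a single array in HSC, so no count of calls is given for it. With each array left out in turn, 20 to 23 members were higher and 5 to 6 lower in CD4+ T cells than in HSC (29 to 34 departing), 18 to 22 and 2 to 4 in PreMegE (21 to 26 departing), and 0 to 3 and 0 to 1 in MPP (0 to 1 departing). Against MPP these ranges were 12 to 19 higher and 5 to 7 lower in CD4+ T cells and 14 to 17 and 1 to 3 in PreMegE, and for CD4+ T cells against PreMegE 1 to 7 and 3 to 7. In MPP the count of members higher than in HSC was 0 without HSC replicate 2, MPP replicate 1 or MPP replicate 3, and 1 without HSC replicate 3 or PreMegE replicate 2. In PreMegE against MPP 1 member was lower without MPP replicate 1, MPP replicate 3 or PreMegE replicate 4. With the replicate number as a block 22 members were higher and 7 lower in CD4+ T cells than in HSC. The counts were 19 and 2 in PreMegE, and 3 and 0 in MPP. Same-numbered arrays of different populations correlated between -0.12 and 0.41 in their deviations, and differently numbered ones between -0.45 and 0.44. No normalisation moved the median of all genes by over 0.1. The number of arrays, and the ceiling of bright probe sets, limit what these values can show.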
